A study of Mus musculus with 12 samples.

Results

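The genes described here are 9 components of the tight junction: Tjp1, Tjp3, Ocln, Marveld2, F11r, Cldn1, Cldn3, Cldn4 and Cldn7. Every probe set whose platform gene symbol is one of these was taken, which gave 16 of the 22690 probe sets on the array, and 9 of 12393 genes named by a single symbol. None of the 16 was shared with another gene in the platform annotation. Of the 16, 13 lay above the filter on low signal and at least 1 of these belonged to each of the 9 genes, while 2 probe sets of Cldn1 and 1 of F11r lay below it.

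The samples were mammary tumours of female mice, strain label FVB, that all carried an MMTV-c-myc transgene, in which the mouse mammary tumour virus promoter drives c-Myc in mammary epithelium. In 6 samples Hunk was knocked out (KO). Its putative promoter and exon 1 had been replaced by a floxed neomycin cassette in E14 embryonic stem cells. In the other 6 samples Hunk was wild type (WT). The labels give no age, and say neither how many targeted clones were used nor that each array held a different mouse, so a numbered tumour below means the sample on 1 array. P-values therefore measure only how these samples spread, and that spread may be technical in part.

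Tight junctions seal the space between neighbouring epithelial cells near their apical surface. Claudins form the paracellular strands and set which ions and solutes pass, occludin (Ocln) and tricellulin (Marveld2) are membrane-spanning partners of the MARVEL family, F11r (JAM-A) is an immunoglobulin-type adhesion protein, and the zonula occludens proteins Tjp1 (ZO-1) and Tjp3 (ZO-3) are PDZ scaffolds that tie these to actin. In the mammary gland these junctions close at the onset of lactation and keep milk components apart from the interstitium.

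The values are deposited log2 GCRMA signals, and a difference is KO minus WT on that scale throughout, so that 1 unit is a 2-fold difference. Array medians ran from 3.87 to 4.10, and precision is limited by how many arrays there are. The background of an array, taken as its highest Bacillus control probe set, averaged 3.71 ± 0.15 in KO and 3.60 ± 0.10 in WT (SD, n = 6 each). Hunk itself had signals of 2.60 to 3.06 in KO tumours and of 5.36, 4.21, 3.84, 3.32, 5.53 and 2.99 in WT tumours 1 to 6, so that WT tumour 6 lay within the KO range. It was above background in 0 of 6 KO and 4 of 6 WT tumours, at least 1.41-fold lower in KO, and its difference of -1.26 (SE 0.39) did not pass over all probe sets (limma, adjusted p = 0.209). The position of its probe set against the deleted part was not analysed here. KO tumours 4 and 5 were the closest pair of arrays, with an SD of their difference over tested probe sets of 0.338, against 0.531 for the next closest pair, so results are also given with these tumours averaged or left out. The 3′ minus 5′ signal of the beta-actin controls, a measure of RNA integrity, was 1.51 ± 0.15 in KO and 1.29 ± 0.05 in WT (SD, n = 6 each). The epithelial markers Krt8, Krt18, Epcam and Cdh1 were above background on every array, and their mean was 11.12 ± 0.32 in KO and 11.08 ± 0.31 in WT (SD, n = 6 each).

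The first comparison asked which tight junction genes differed between Hunk KO and Hunk WT Myc tumours. Tjp3 was higher in the KO tumours, 2.94-fold (95% confidence interval 1.98 to 4.37), and no other of the 13 tested probe sets passed the threshold. Thus 1 probe set rose, 0 fell and 12 did not pass, where over all 11313 probe sets tested 2.46% passed, 1.18% as higher and 1.28% as lower in KO (limma, Benjamini-Hochberg adjusted p under 0.05). Before adjustment 7 of the 13 had a p under 0.05, against 19.1% of all probe sets tested. These 7 came from 5 genes, 4 being higher (Tjp3, Cldn4 and 2 probe sets of Cldn3) and 3 lower (Ocln and 2 probe sets of Cldn1). Probe sets of the same gene are not independent. The members were also chosen with earlier results of these data known, so 7 of 13 against 19.1% cannot be read as enrichment. The median difference of the 13 was 0.21, and that of all probe sets tested was 0.01. In bulk tumours fewer cells of a type and less RNA per cell cannot be told apart.

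**Figure D1:**
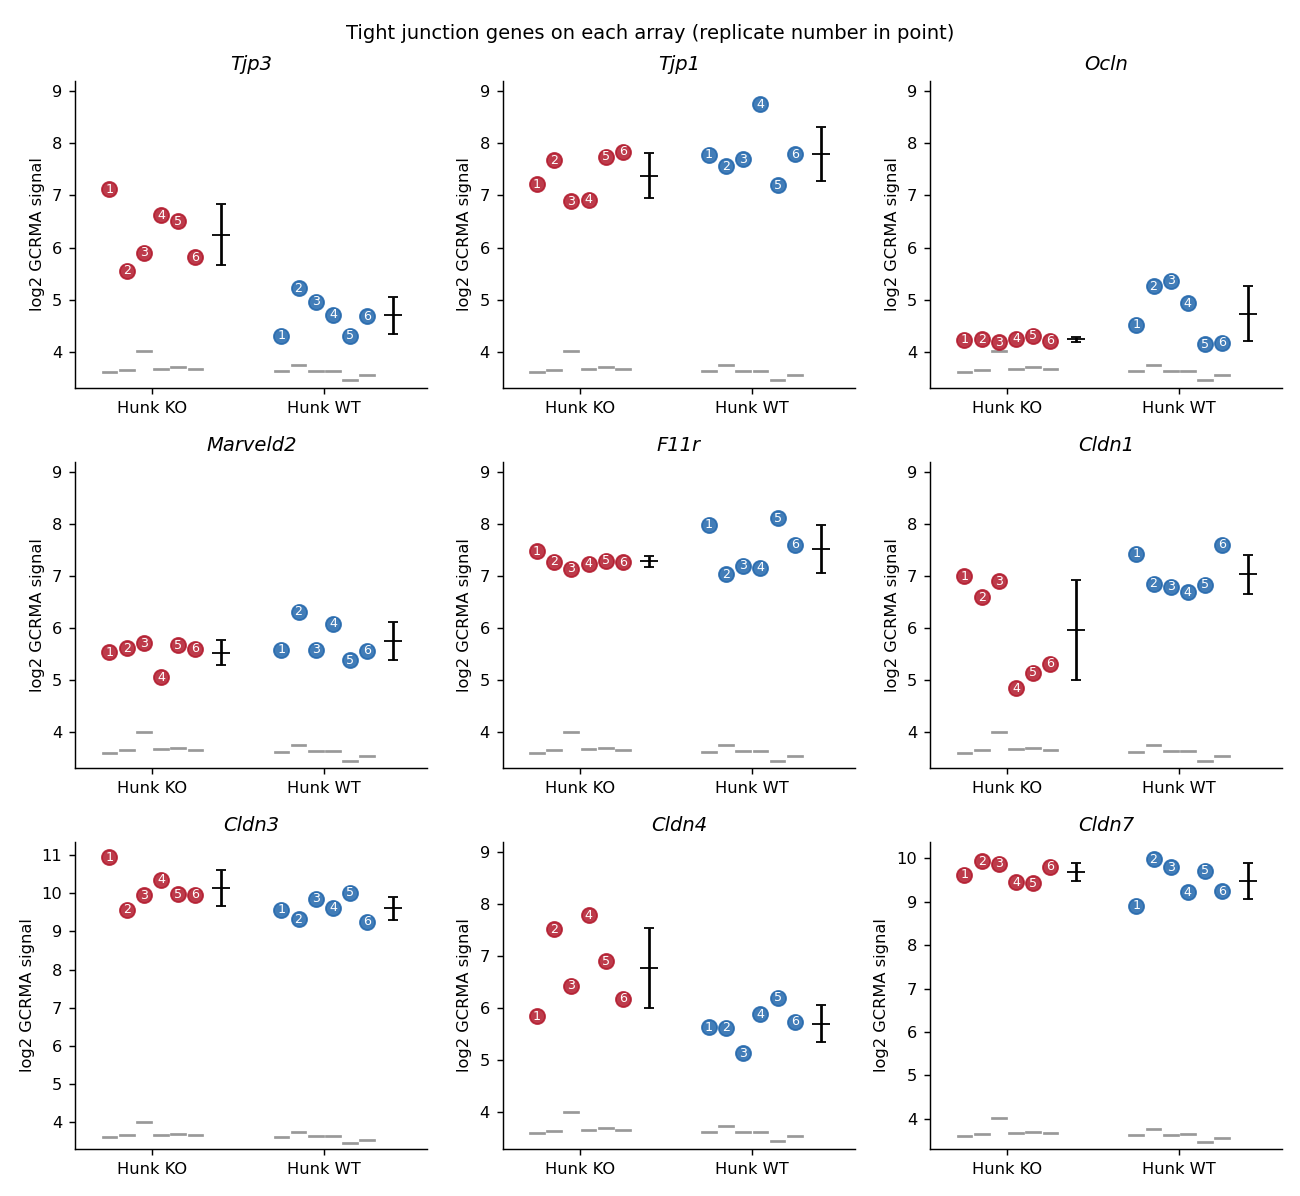
Log2 GCRMA signal (y axis) of each gene's probe set of highest mean in 6 KO tumours (red, left) and 6 WT tumours (blue, right), with the replicate number in each point, mean and SD in black and each array's background in grey. The KO and WT points of Tjp3 do not overlap, Cldn1 is at 5.31 or less in KO tumours 4, 5 and 6, and Ocln lies between 4.18 and 4.30 in all KO tumours.

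Among the scaffolds, Tjp3 had signals of 7.12, 5.55, 5.90, 6.62, 6.50 and 5.81 in KO tumours 1 to 6. In WT tumours 1 to 6 it had 4.31, 5.21, 4.96, 4.71, 4.30 and 4.68. All 6 KO tumours lay above every WT tumour, a separation found in 2.87% of probe sets tested, and in this direction in 1.49%. No other member's groups were separate. The means were 6.25 ± 0.59 in KO and 4.69 ± 0.36 in WT (SD, n = 6 each), a difference of 1.56 (SE 0.26, limma, adjusted p = 0.0105). The exact two-sided permutation test gave p = 0.0022, the smallest that 6 against 6 can give. The call was kept in each of the 12 fits with 1 array left out, with differences from 1.38 to 1.70 and adjusted p from 0.00879 to 0.029. Adjusted for the beta-actin measure, in which only KO tumour 1 overlapped WT, the difference was 2.11 (adjusted p = 0.0233). Adjusted for the epithelial marker mean it was 1.54 (adjusted p = 0.0154), and with KO tumours 4 and 5 averaged 1.49 (adjusted p = 0.0277). With both of those tumours left out, a choice made after seeing the data, it was 1.40 and did not pass (adjusted p = 0.0506). With a block for replicate number, which the labels do not say pairs the samples, it was 1.56 and did not pass (limma, adjusted p = 0.0698).

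Tjp1, the scaffold that is expressed beyond epithelia as well, was lower on average in KO and did not pass. Its signal had a lowest, median and highest value of 6.89, 7.44 and 7.84 in KO and of 7.20, 7.74 and 8.75 in WT. The groups overlapped widely, and WT tumour 4 held the highest value. The difference was -0.41, with a 95% confidence interval from -0.98 to 0.15 (adjusted p = 0.385). It was -0.22 without WT tumour 4 and -0.14 adjusted for the beta-actin measure.

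The promoter windows of Tjp3 are shown because it is the member that passed. They are RefSeq sequences of GRCm38.p6, from 250 bases before to 50 after an annotated start, on the minus strand, at chr10:81291532-81291831 for the upstream start and chr10:81291218-81291517 for the downstream start. Capitals mark matches on either strand to CACGTG, the E-box that MYC and MAX bind, and to CAGGTG, the E-box that Snail and Zeb repressors bind, which reads CACCTG on the other strand. The upstream window held 1 match to the Snail and Zeb E-box, and the downstream window held 1 to that and 1 to the MYC E-box.
Tjp3 upstream start: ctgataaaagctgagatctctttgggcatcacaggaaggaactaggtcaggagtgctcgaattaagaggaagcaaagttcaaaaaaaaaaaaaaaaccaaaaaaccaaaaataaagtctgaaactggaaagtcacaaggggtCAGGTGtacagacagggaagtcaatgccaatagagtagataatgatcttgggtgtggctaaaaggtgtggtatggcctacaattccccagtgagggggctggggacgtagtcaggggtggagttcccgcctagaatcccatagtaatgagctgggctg
Tjp3 downstream start: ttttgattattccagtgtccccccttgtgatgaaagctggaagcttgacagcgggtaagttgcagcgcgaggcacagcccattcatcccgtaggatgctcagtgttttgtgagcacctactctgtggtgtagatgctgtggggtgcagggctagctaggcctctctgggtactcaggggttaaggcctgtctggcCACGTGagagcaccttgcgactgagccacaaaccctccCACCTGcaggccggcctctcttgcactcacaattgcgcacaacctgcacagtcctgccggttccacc
A match is a description of the letters, and no factor's binding was measured. Of 32851 promoter windows of this length in the table, 7.15% held the MYC E-box and 20.2% the Snail and Zeb E-box.

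The transmembrane partners Ocln, Marveld2 and F11r were each lower on average in KO, and none passed. Ocln had signals of 4.23, 4.24, 4.18, 4.25, 4.30 and 4.20 in KO tumours 1 to 6 and of 4.51, 5.26, 5.36, 4.93, 4.14 and 4.17 in WT tumours 1 to 6. WT tumours 1 to 4 stood above every KO tumour, and WT tumours 5 and 6 just below every KO tumour, with an SD of 0.04 in KO and 0.53 in WT (n = 6 each). All values lay above background, but KO tumour 3 had 4.18 against a background of 4.00, and the KO values lay close to the filter on low signal (3.98). The difference in spread was not tested. The difference was -0.49 (95% confidence interval -0.93 to -0.06, adjusted p = 0.209).

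Tricellulin, which seals the corners where cells meet, is encoded by Marveld2. Its signal had a lowest, median and highest value of 5.05, 5.61 and 5.71 in KO and of 5.38, 5.58 and 6.31 in WT. The groups overlapped, with KO tumour 4 below all others and WT tumours 2 and 4 above every KO tumour. The difference was -0.22 (95% confidence interval -0.60 to 0.16, adjusted p = 0.489), and -0.12 without KO tumour 4, -0.11 without WT tumour 2 and -0.14 with KO tumours 4 and 5 left out. Ocln and Marveld2 lie close together on chromosome 13, with 0 protein-coding genes between them. WT tumours 2 and 4 were the highest for Marveld2, at 6.31 and 6.08, and stood high for Ocln too, whereas WT tumour 3 was highest for Ocln and had 5.58 for Marveld2.

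F11r, the junctional adhesion molecule that recruits polarity proteins, was lower on average in KO and did not pass. Its signal ranged from 7.14 to 7.47 in KO with a median of 7.27 and from 7.03 to 8.11 in WT with a median of 7.40. WT tumours 1, 5 and 6 were the highest, at 7.98, 8.11 and 7.60, and the other WT tumours lay at or near the KO range. The SD was 0.11 in KO and 0.46 in WT (n = 6 each), a difference in spread that was not tested. The difference was -0.23 (95% confidence interval -0.65 to 0.18, adjusted p = 0.504). It was -0.11 without WT tumour 5, -0.14 without WT tumour 1 and -0.13 with array weights. The second F11r probe set lay at or below background on all 12 arrays and so gave no measure of the gene.

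**Figure D2:**
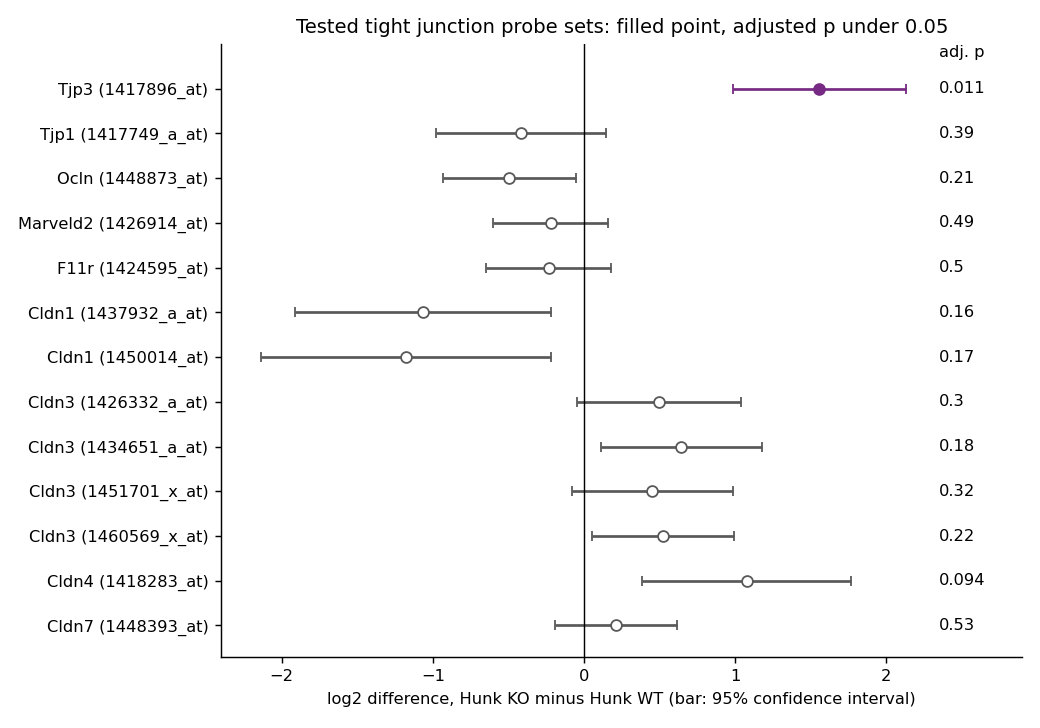
Log2 difference between KO and WT (x axis, point) with its 95% confidence interval (bar) for the 13 tested probe sets, with adjusted p on the right. The filled point of Tjp3, at 1.56, is the call, and the open points of both Cldn1 probe sets lie at -1.07 and -1.18 opposite to those of Cldn3 and Cldn4.

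Among the claudins, Cldn4 was higher and Cldn1 lower in KO on average, and neither passed. Cldn4, a claudin known for limiting sodium passage, had signals of 5.85, 7.52, 6.44, 7.79, 6.91 and 6.18 in KO tumours 1 to 6. In WT tumours 1 to 6 it had 5.64, 5.63, 5.13, 5.89, 6.20 and 5.74. KO tumours 2, 3, 4 and 5 lay above every WT tumour, and KO tumours 1 and 6 within the WT range. The means were 6.78 ± 0.76 in KO and 5.71 ± 0.35 in WT (SD, n = 6 each), a difference of 1.08 (95% confidence interval 0.38 to 1.77), or 2.11-fold (adjusted p = 0.0938). It passed without KO tumour 1 (1.26, adjusted p = 0.0471) and with array weights (1.30, adjusted p = 0.0275). Adjusted for the beta-actin measure it was 0.73, with the highest adjusted p of its 25 alternatives (0.529).

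Cldn3, the neighbour of Cldn4 on chromosome 5 with 0 annotated genes between them, was read by 4 probe sets. Their differences were 0.45, 0.50, 0.52 and 0.64, and none passed (adjusted p from 0.182 to 0.323). In the probe set of highest mean the lowest, median and highest signals were 9.57, 9.97 and 10.94 in KO and 9.25, 9.59 and 10.01 in WT. KO tumour 1 was highest and KO tumour 4 next in each of the 4 probe sets, while Cldn4 was lowest in KO tumour 1 and highest in KO tumour 4. Without KO tumour 1 the differences of the 4 probe sets ranged from 0.26 to 0.49, and adjusted for the beta-actin measure from 0.96 to 1.11, and none passed in either fit.

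Cldn1, a barrier claudin best known from the epidermis, was low in some KO tumours and at or near WT levels in others. In its probe set of highest mean the signals were 6.99, 6.59 and 6.90 in KO tumours 1, 2 and 3 and 4.84, 5.14 and 5.31 in KO tumours 4, 5 and 6. In WT tumours 1 to 6 they were 7.42, 6.85, 6.79, 6.68, 6.83 and 7.60. KO tumours 4, 5 and 6 lay below every WT tumour by more than the whole WT range. KO tumour 2 lay just below the lowest WT tumour, and KO tumours 1 and 3 within the WT range. In the second probe set above the filter KO tumours 4, 5 and 6 had signals of 2.92, 3.07 and 3.24, all below array background and so without an order among them, where KO tumours 1, 2 and 3 had 5.39, 4.35 and 4.14 and the WT tumours 4.35 to 6.20. Neither difference passed, at -1.07 (95% confidence interval -1.91 to -0.22, adjusted p = 0.165) and -1.18 (-2.13 to -0.22, adjusted p = 0.174). With KO tumours 4 and 5 left out they were -0.58 (adjusted p = 0.415) and -0.75 (adjusted p = 0.437), and with array weights the first passed (-1.34, adjusted p = 0.0469). Adjusted for the beta-actin measure they were -0.93 (adjusted p = 0.526) and -0.53 (adjusted p = 0.798). The other 2 probe sets lay at or below background on all 12 arrays, and so gave no measure of Cldn1. Cldn1 lies on chromosome 16, as Hunk does, with 362 annotated protein-coding genes between them.

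**Figure D3:**
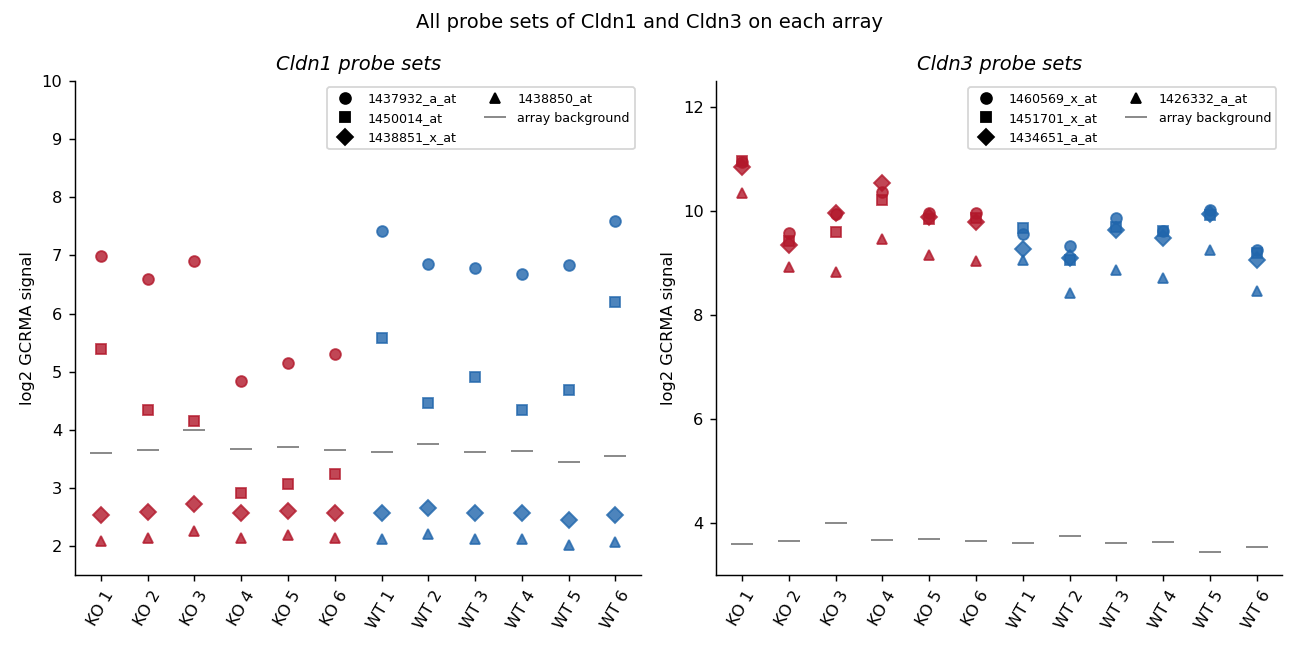
Log2 GCRMA signal (y axis) of all 4 probe sets of Cldn1 (left) and of Cldn3 (right) on each array (x axis), KO in red, WT in blue, array background in grey. The 2 upper probe sets of Cldn1 are lowest in KO tumours 4, 5 and 6 while its 2 lower ones stay below background throughout, and all 4 probe sets of Cldn3 are highest in KO tumour 1.

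Cldn7, a claudin that also lies along the basolateral membrane, did not pass either. Its signal ranged from 9.43 to 9.93 in KO with a median of 9.72 and from 8.90 to 9.98 in WT with a median of 9.48. All KO values lay within the WT range. The difference was 0.21 (95% confidence interval -0.19 to 0.62, adjusted p = 0.533). It was 0.10 without WT tumour 1, 0.03 adjusted for the beta-actin measure and 0.34 with KO tumours 4 and 5 left out, and did not pass in these fits.

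The promoter windows of Cldn4, Cldn3 and Cldn1 are shown because the first pair are neighbours and the last differed in the other direction. They are at chr5:134946885-134947184 (minus strand), chr5:134985964-134986263 (plus strand) and chr16:26371790-26372089 (minus strand) in GRCm38.p6. Capitals mark the same motifs as for Tjp3.
Cldn4: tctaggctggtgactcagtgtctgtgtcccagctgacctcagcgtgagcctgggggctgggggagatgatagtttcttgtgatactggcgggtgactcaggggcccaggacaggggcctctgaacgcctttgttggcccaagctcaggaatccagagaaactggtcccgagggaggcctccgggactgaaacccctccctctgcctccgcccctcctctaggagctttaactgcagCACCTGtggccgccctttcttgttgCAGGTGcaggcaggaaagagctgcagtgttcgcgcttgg
Cldn3: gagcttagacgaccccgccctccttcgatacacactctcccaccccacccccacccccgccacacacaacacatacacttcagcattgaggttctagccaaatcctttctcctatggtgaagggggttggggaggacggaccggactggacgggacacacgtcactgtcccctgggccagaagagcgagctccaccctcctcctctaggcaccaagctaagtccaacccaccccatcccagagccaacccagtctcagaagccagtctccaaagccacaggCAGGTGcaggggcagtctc
Cldn1: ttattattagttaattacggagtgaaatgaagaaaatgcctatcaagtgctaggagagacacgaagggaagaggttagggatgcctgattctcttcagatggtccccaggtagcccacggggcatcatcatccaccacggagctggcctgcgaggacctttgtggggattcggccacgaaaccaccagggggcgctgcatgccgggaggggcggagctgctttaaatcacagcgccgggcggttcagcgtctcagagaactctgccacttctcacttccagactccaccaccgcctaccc
The windows of Cldn4 and Cldn3 held 2 and 1 matches to the Snail and Zeb E-box, and that of Cldn1 held 0. Over the upstream-most windows of the 9 genes, 6 held such a match and 0 held the MYC E-box, against the 20.2% and 7.15% of all windows given above. The Grainyhead letters AACCGGTT were in 0 of the 9 and in 0.146% of all windows. These counts describe the letters in these windows and bear on no factor's activity.

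Across the members, the arrays at the extremes changed from gene to gene. Taking each gene's probe set of highest mean, KO tumour 1 was the highest KO tumour for 4 of the 9 genes (Tjp3, F11r, Cldn1 and Cldn3) and the lowest for Cldn4. KO tumour 3 was the lowest KO tumour for 3 genes (Tjp1, Ocln and F11r). WT tumour 5 was the highest WT tumour for 3 genes (F11r, Cldn3 and Cldn4) and the lowest for 4 (Tjp1, Tjp3, Ocln and Marveld2). The genes whose levels varied most like Tjp3 were sought among 6816 others, by correlating, over the 12 arrays, each array's distance from its own group mean. They were Abcf1, a translation-associated ATP-binding protein (r = 0.88), the mucosal chemokine gene Cxcl17 (r = 0.87) and the kinase gene Stk38 (r = 0.87), a description made by ranking and with no test. For Cxcl17 r was 0.99 within the 6 KO and 0.39 within the 6 WT tumours, while for Abcf1 it was 0.96 and 0.85 and for Stk38 0.90 and 0.89 in KO and WT. Their own differences were 0.31, 2.29 and 0.71, and none passed (limma, adjusted p = 0.417, 0.138 and 0.0837).

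A wider list of 60 held further tight junction genes and also polarity, signalling and transcription factor genes, not all of them junction components. Of these 60, 53 had a probe set named by a single symbol. Of their 90 probe sets 33 from 25 genes were tested, and 0 rose and 0 fell (limma), with 2 higher and 5 lower at an unadjusted p under 0.05, or 21.2% against 19.1% of all probe sets tested. The median difference of the 33 was 0.06, and that of all probe sets tested was 0.01. The most negative difference among the 33 was that of Cgnl1, which encodes the junction plaque protein paracingulin, with a mean signal of 5.77 ± 0.73 in KO and 7.46 ± 1.39 in WT (SD, n = 6 each, difference -1.68, SE 0.58, adjusted p = 0.146). It passed without WT tumour 2 (-2.13, adjusted p = 0.0386), and over its 26 alternatives the adjusted p ran from 0.0386 to 0.745.

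Cgnl1 was also the scaffold gene of highest mean. In the other roles the genes of highest mean were the tricellular junction receptor Lsr with a difference of 0.14 (SE 0.17), the atypical protein kinase C gene Prkci with 0.15 (SE 0.19), the Y-box gene Ybx3 with -0.33 (SE 0.12, adjusted p = 0.165) and the epithelial transcription factor Grhl2 with -0.03 (SE 0.24), none of which passed.

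Crb3 and Cxadr are named because they passed under 1 alternative each, and so were chosen after their values were seen. Crb3, an apical polarity protein, had signals of 5.56, 4.83, 4.65, 4.85, 4.65 and 4.57 in KO tumours 1 to 6 and of 4.07, 4.44, 4.52, 4.47, 4.34 and 4.43 in WT tumours 1 to 6. Its groups did not overlap, a separation found in 2.87% of probe sets tested and in this direction in 1.49%, and KO tumour 1 stood above the rest. These values are of the probe set of highest mean. The other Crb3 probe sets lay at or below background on every array, and their groups overlapped. In the probe set of highest mean the difference was 0.47 (SE 0.15, adjusted p = 0.130). It was 0.91 with the beta-actin covariate (adjusted p = 0.029, against up to 0.239 over its alternatives). The adhesion receptor gene Cxadr had differences of -0.80, -0.41 and -0.25 in its 3 tested probe sets (adjusted p from 0.137 to 0.400). The first of these was -1.13 with KO tumours 4 and 5 left out (adjusted p = 0.0473, against up to 0.478 over its alternatives).

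Most other claudins were at background in these tumours. Of 14 further claudin genes, 8 were at or below background on all 12 arrays, among them the endothelial claudin Cldn5, and 2 were tested, with differences of -0.02 for Cldn13 and 0.06 for Cldn14, the one of highest mean, neither of which passed. Of the repressors of epithelial junction genes, Snai1, Zeb1 and Zeb2 were also at or below background on every array. Snai2 was above it on all 12, at 3.81 ± 0.17 in KO and 3.68 ± 0.12 in WT (SD, n = 6 each), below the filter on low signal. On some arrays the margin was very small. KO tumour 3 had 4.007 against a background of 4.003, and WT tumour 1 had 3.622 against 3.619. 

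Markers of other cell types were set beside these values. At or below background on all 12 arrays were 4 of 6 endothelial markers (Pecam1, Cdh5, Kdr and Cldn5), 3 of 6 fibroblast markers (Pdgfra, Dcn and Lum), 2 of 3 platelet markers (Itga2b and Gp9), and 1 each of the epithelial (Cdh3), basal (Myh11), leukocyte (Cd79a) and adipocyte (Retn) markers. The summed log2 level of the 6 fibroblast markers ranged from 36.3 to 41.2 in KO and from 34.9 to 38.6 in WT. That of the 3 adipocyte markers measured ranged from 11.6 to 20.4 in KO and from 9.75 to 13.1 in WT, and that of the 4 skeletal muscle markers from 11.7 to 33.1 in KO and from 11.5 to 17.9 in WT. Adipoq was above background in KO tumour 2 only, at 6.29, while Fabp4 was above it on all 12 arrays. Ckm, Myh4 and Tnnt3 were above background in KO tumour 3 only. Acta1, the muscle marker of highest mean, was above it in KO tumours 2 and 3, at 5.20 and 12.4. It was also above background in WT tumours 1, 2 and 3, at 8.35, 5.78 and 5.43. The mean sums were 39.0 in KO and 36.2 in WT for the fibroblast markers and 14.4 and 11.9 for the adipocyte markers. For the skeletal muscle markers they were 15.8 and 13.6. These differences in sums were not tested. The KO and WT ranges of all these sums overlapped, which does not show that the groups were alike. So did the sums of the 6 epithelial markers (54.8 to 58.9 in KO, 55.1 to 58.0 in WT) and the 5 basal markers (24.0 to 30.9 in KO, 23.6 to 33.0 in WT). Those of the 6 leukocyte markers overlapped too (27.1 to 30.4 in KO, 27.4 to 31.6 in WT). The same held for the 6 endothelial markers (17.8 to 19.3 in KO, 17.4 to 18.8 in WT) and the 3 platelet markers (8.13 to 9.64 in KO, 8.26 to 9.49 in WT). Of the markers of highest mean, the collagen gene Col3a1 had a difference of 0.94 (adjusted p = 0.0739) and the fatty acid carrier gene Fabp4 1.51 (adjusted p = 0.230). Krt18, Acta2, Emcn, Cd68, Acta1 and Pf4 had differences from -0.17 to 0.29, and none of the 8 passed. The tested probe sets of the collagen genes Col1a1 (0.71 and 0.42) and Col1a2 (0.75 and 0.65) were also higher on average in KO and did not pass. The basal keratin gene Krt14, named after its values were seen, had the most positive difference of the tested markers, 2.52 (SE 1.07, adjusted p = 0.226) and 2.08 (SE 0.89, adjusted p = 0.230) in its 2 tested probe sets. In the probe set of highest mean its signals were 3.68, 8.02, 9.24, 6.77, 6.90 and 9.46 in KO tumours 1 to 6 and 3.71, 3.70, 3.69, 3.70, 5.57 and 8.58 in WT tumours 1 to 6. KO tumour 1 was thus as low as WT tumours 1 to 4, and WT tumour 6 was among the high ones. The other basal markers did not share the Krt14 difference. Krt5 had -0.56 (SE 0.68), with signals of 3.50 to 4.36 in KO, and in WT tumour 6 it had 8.04. Acta2 and Trp63 had 0.24 (SE 0.17) and 0.13 (SE 0.07) in their tested probe sets. The part of these cell types in the tight junction values was not tested.

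**Figure D4:**
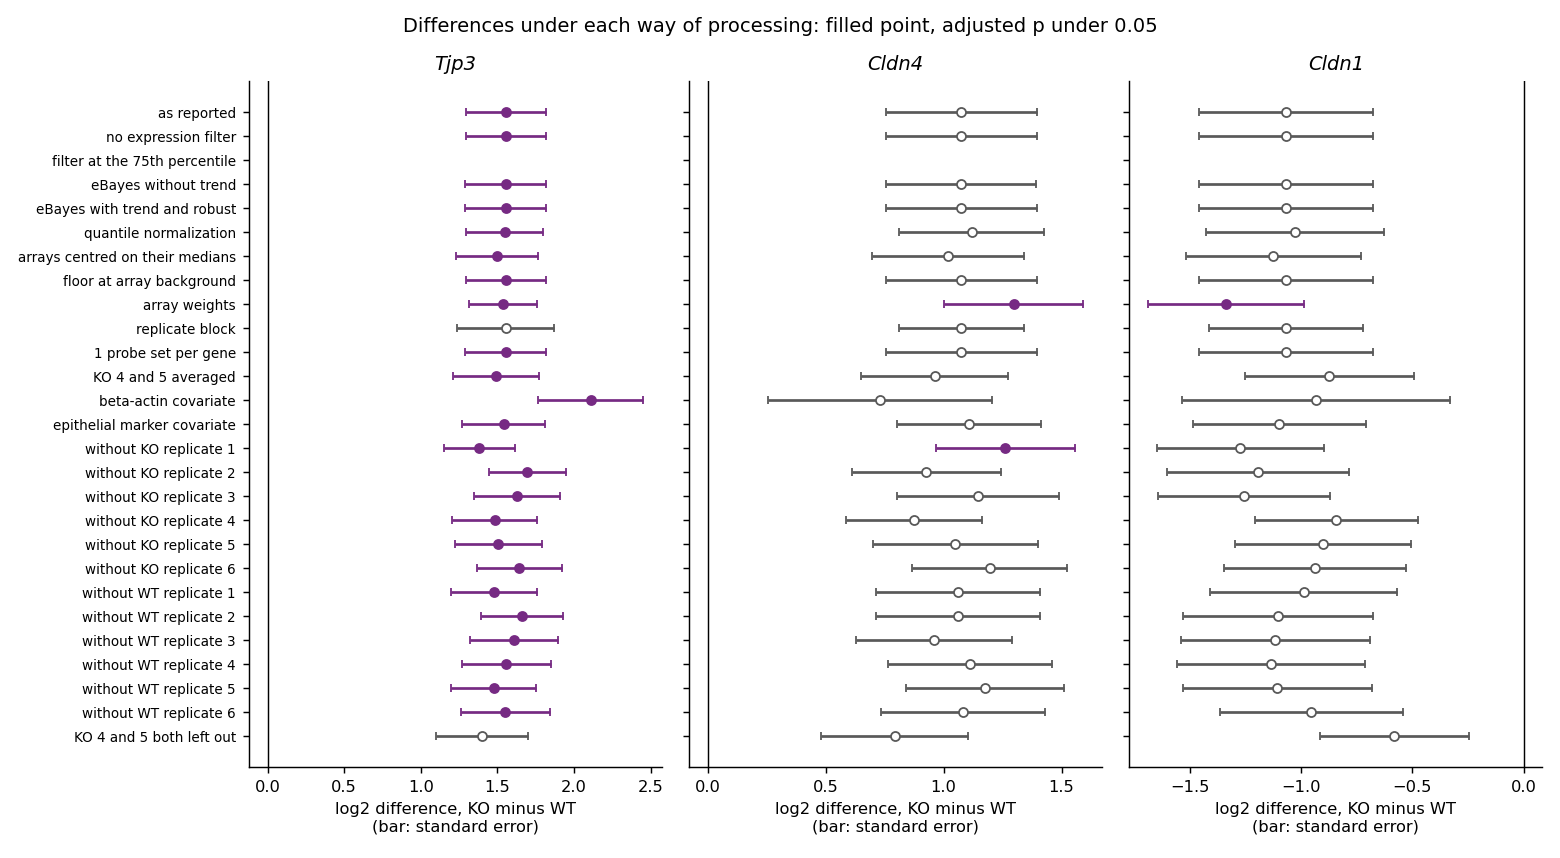
Log2 difference between KO and WT (x axis, bar: standard error) of Tjp3, Cldn4 and Cldn1 (each by its probe set of highest mean) under each way of processing (y axis), filled where the adjusted p was under 0.05. Tjp3 is filled in all but 2 of its alternatives, Cldn4 in 2 and Cldn1 in 1, and the sign of each is the same throughout.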

How the data were processed

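RNA of mammary tumours was hybridised to 12 Affymetrix arrays, and the labels do not say that each array held a different mouse. The deposited log2 values are GCRMA signals per the submitters' processing notes, with no version given, so background subtraction and normalization were the authors' and were kept. Probe sets were named from the platform annotation, where 20393 had 1 gene symbol, 691 several and 1606 were not listed. The 64 control probe sets were left out, and probe sets whose mean over the 12 arrays lay above the median of such means (3.98) were tested, 11313 in all. KO was compared with WT by limma 3.58.1 (lmFit, eBayes with trend, R 4.3.3), with Benjamini-Hochberg adjustment over all probe sets tested and a threshold of 0.05. Single values were also compared by the exact two-sided permutation test (scipy 1.17.1). The members and gene lists were chosen with earlier results of these data known. Genes named were all members, the wider-list gene of highest mean in each role and any past the threshold, the 3 genes most like a member that passed, Hunk, and the marker of highest mean in each cell type list. Crb3, Cxadr, Cldn5, Cldn13, Snai1, Snai2, Zeb1, Zeb2, Krt14, Igsf5, Pard6b and the markers named beside those of highest mean fall outside this rule, having been picked with their values in view. The fit was tested on simulated data of 11313 probe sets, where it recovered 64% of 100 log2 changes of size 1 and 93% of 100 of size 2. Alternatives varied the filter, moderation, normalization, floor, array weights, covariates, probe sets per gene, replicate block and arrays used. Promoter windows came from RefSeq on GRCm38.p6 and matched 9 of 9 members.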

Additional observations from a re-analysis of the deposited data

Results flagged for a closer look

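Marveld2, which encodes tricellulin, had a log2 signal of 5.05 in KO tumour 4, where the nearest other KO tumour had 5.53. This gap was 0.734 of the range of the 6 KO tumours, above Dixon's critical value for 6 samples. It was the only one flagged among the 32 groups checked (16 probe sets in KO and in WT), and chance flags about 1 in 20 groups. The difference of Marveld2 did not pass in any of the 25 alternatives that gave a value, where it ranged from -0.29 to -0.11.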

How the results depend on the processing

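Of 328 gene-level values under 26 alternatives, 323 kept their side of the threshold, 2 fell below it, 3 rose past it and 0 changed sign. The 278 calls over all probe sets became 152 with no filter, 602 with array weights, 170 with KO tumours 4 and 5 averaged, 104 with the beta-actin covariate and 173 with both tumours left out, the last chosen after seeing the data. Leaving out 1 array gave 134 to 315, with 168, 161 and 167 without KO tumours 4, 5 and 6 and 134 and 184 without WT tumours 4 and 6. Of the calls 47.8% were higher in KO, against 35.9% with arrays centred on their medians and 68.3% with the beta-actin covariate. The single member call became 0 with the 75th percentile filter, where Tjp3 was not tested, 3 with array weights, and 0 with KO tumours 4 and 5 left out, where Tjp3 was at 1.40 (adjusted p = 0.0506). Leaving out 1 array gave 1 to 2 member calls, 2 without KO tumour 1, with Tjp3 from 1.38 to 1.70. In the wider list the 0 calls became 1 with the beta-actin covariate, 1 with KO tumours 4 and 5 left out, and 0 to 1 with 1 array left out. Whether replicate numbers pair the samples was not settled. Same-numbered deviations correlated at -0.02 to 0.14 and over 0.1 in 2 of 6 pairs, and 3 of 6 KO tumours correlated best with their own number. With the replicate block there were 112 calls in all and 0 among members, with Tjp3 at 1.56 (adjusted p = 0.0698). The causes were not tested. Probe sets near background, such as the 3 members below the filter, limit what these arrays resolve.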

Other observations

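Igsf5, which encodes a junctional immunoglobulin-type protein of the JAM family, lay below the filter on mean signal and is given after its values were seen. Its log2 signals were 5.50, 2.72, 2.70, 2.67, 3.79 and 3.81 in KO tumours 1 to 6 and between 2.42 and 2.60 in the 6 WT tumours. It was above background in KO tumours 1, 5 and 6 only, that is in 3 of 6 KO and 0 of 6 WT tumours, and the values below background have no order. The fit over all 22626 probe sets did not pass (limma, adjusted p = 0.363).

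Pard6b, a polarity adaptor of the PAR complex, was also picked after its values were seen. In its probe set of highest mean it had 5.79 and 5.81 in KO tumours 4 and 5, the closest pair of arrays, while the other KO tumours had 4.40 to 4.54 and the WT tumours 4.24 to 4.66.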
